A study of Homo sapiens with 2 samples.

Results

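Messenger RNA of 10 genes at the centre of the Hippo pathway was examined in Cal-27 cells, an established oral squamous carcinoma line whose source tissue was tongue. The genes were the rows named YAP1, WWTR1, TEAD1, TEAD2, TEAD3, TEAD4, LATS1, LATS2, STK3 and NF2 in the deposited tables, 10 of 20263 genes, and all 10 were found. One library came from cells stably transduced with a control vector (sh-scramble) and the other from cells stably transduced with GV-248-HIPK2-sh, a hairpin against the nuclear kinase gene HIPK2. Both cultures grew in regular DMEM with serum, and the labels give no time after transduction, no clone and no second hairpin.

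With 1 library per group there was no spread between cultures to measure, so no p-value is given and each difference is between these libraries, not between conditions. The control library held 28064923 counts and the library labelled sh-HIPK2 26450251. Counts were scaled to library size as CPM, with edgeR's TMM factors. Values in brackets are 95% exact counting intervals, which do not include culture-to-culture variation. Because these are bulk libraries, fewer cells expressing a gene and less RNA per cell cannot be told apart.

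The targeted gene did not settle the label. HIPK2 (ENSG00000064393, chromosome 7) had 110 and 218 counts, a CPM ratio of 2.01 (1.59 to 2.55), while its deposited TPM, a level per transcript length, was 1.63 and 0.873. The sample is therefore called the library labelled sh-HIPK2. The cell type matched its label in that all 9 squamous markers were above 1 CPM in at least 1 library (summed level 4640 and 3983 CPM), although KRT14 was 7.13-fold lower (5.19 to 10.0) and CDH1 2.11-fold lower (2.01 to 2.22) in the library labelled sh-HIPK2. Of 7 fibroblast markers, DCN and PDGFRA were at 0 counts in both libraries, while COL1A1 (263 and 343 counts), COL1A2 (187 and 164) and PDGFRB (44 and 73) were expressed (list sum 18.2 and 21.5 CPM). Of 5 endothelial markers, PECAM1, KDR and EMCN were at 0 in both, and the list sum of 56.1 and 28.5 CPM was mostly CDH5. Of 7 leukocyte markers, PTPRC, CD3E and MS4A1 were at 0 in both, while CD68 (634 and 558 counts), CD14 (136 and 88) and ITGAM (43 and 55) were expressed (list sum 29.6 and 25.9 CPM). The part of these markers in the results below was not tested.

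The Hippo pathway is a kinase cascade that restrains growth in epithelia. The kinase MST2, encoded by STK3, and its relative MST1 activate the kinases LATS1 and LATS2, a step that the membrane scaffold merlin, encoded by NF2, promotes. LATS kinases phosphorylate the coactivators YAP (YAP1) and TAZ (WWTR1) and keep them out of the nucleus. When they are not phosphorylated, YAP and TAZ enter the nucleus and act through the DNA-binding factors TEAD1 to TEAD4, which by themselves lack a strong activation function. NF2 is a tumour suppressor gene, and YAP1 lies in a region often amplified in squamous carcinomas. Most of this control acts on the proteins, so mRNA levels describe only the supply of the parts.

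TEAD factors bind the sequence GGAATG, or CATTCC on the other strand, and promoters that hold it are shown. The sequences are the 250 bases upstream of the RefSeq start (GRCh38.p14), read on the gene's strand, with each match to the motif in capitals. YAP1 was the single one of the 7 members found in the promoter table with a match upstream of its start. CTGF (listed there as CCN2) and ANKRD1 are shown as TEAD target genes. Among the YAP/TEAD output genes given below they lay furthest below the control. No near-level or higher gene of that list was looked up, so the number of matches cannot be set against the differences. The windows are chr11:102110197-102110446 on the plus strand for YAP1, chr6:131951373-131951622 on the minus strand for CTGF and chr10:90921088-90921337 on the minus strand for ANKRD1.
YAP1: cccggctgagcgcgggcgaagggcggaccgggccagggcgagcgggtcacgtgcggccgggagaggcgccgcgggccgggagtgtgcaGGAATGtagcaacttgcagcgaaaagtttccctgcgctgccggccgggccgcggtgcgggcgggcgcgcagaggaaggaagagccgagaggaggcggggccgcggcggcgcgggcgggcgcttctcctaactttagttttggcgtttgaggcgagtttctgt
CTGF: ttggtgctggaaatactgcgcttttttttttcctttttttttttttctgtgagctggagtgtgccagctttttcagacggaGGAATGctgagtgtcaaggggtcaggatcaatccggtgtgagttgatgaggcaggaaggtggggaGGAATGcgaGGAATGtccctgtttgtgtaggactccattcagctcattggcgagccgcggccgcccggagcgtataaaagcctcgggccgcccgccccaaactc
ANKRD1: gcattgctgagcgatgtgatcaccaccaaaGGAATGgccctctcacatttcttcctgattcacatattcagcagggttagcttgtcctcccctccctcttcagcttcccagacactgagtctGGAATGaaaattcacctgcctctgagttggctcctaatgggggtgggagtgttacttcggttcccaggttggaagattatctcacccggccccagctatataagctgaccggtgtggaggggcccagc
The YAP1 match begins 162 bases before the start. The 3 matches of CTGF begin 169, 104 and 95 bases before it, and the 2 of ANKRD1 begin 220 and 128 bases before it. Both strands were searched over the full window of 300 bases, which also holds 50 bases after the start. In that window LATS2 had 1 match, which begins at base 10 of the transcript, and WWTR1, TEAD2, TEAD3, LATS1 and NF2 had 0. TEAD1, TEAD4 and STK3 had no entry. Of all 35116 promoters in the table, 14.03% held at least 1 match and 1.37% held at least 2. A match is only a run of letters and was not tested for binding.

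**Figure D1:**
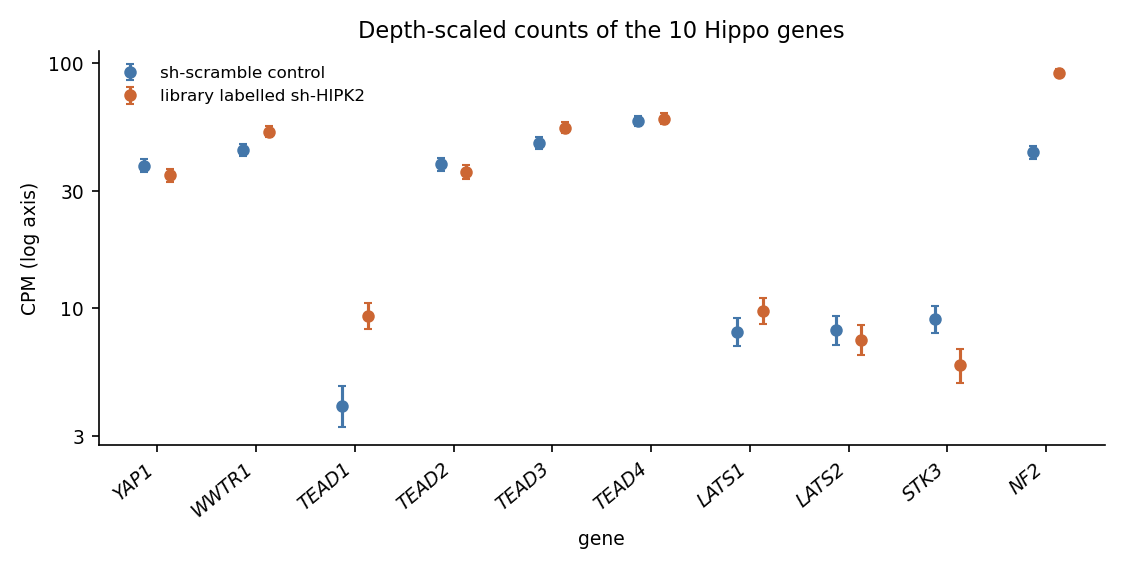
CPM (log axis) of the 10 Hippo genes in the sh-scramble control (blue) and the library labelled sh-HIPK2 (orange), 1 library each; bars are 95% Poisson counting intervals. TEAD1 and NF2 sit clearly higher and STK3 lower in the library labelled sh-HIPK2, and the other genes lie close together.

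All 10 members were expressed, defined as at least 1 CPM in at least 1 library, with 109 to 2474 counts per library. In CPM, 6 were higher and 4 lower in the library labelled sh-HIPK2, where 50.0% of all expressed genes were higher. In TPM, 7 were higher and 3 lower, where 57.8% of expressed genes were higher and 42.2% lower. The log2 ratio was taken on CPM + 1, and a gene was counted as past 2-fold at 1 or more in size. TEAD1 and NF2 passed it, both higher, against 3.26% of 11813 expressed genes that did so upwards and 6.13% in either direction. No rate can be drawn from 10 genes, and these were chosen as a pathway with earlier results of these data known. The median log2 ratio of the members was 0.12, beside 0.00023 over all expressed genes. In the deposited TPM another gene, WWTR1, was the 1 member past 2-fold, against 2.69% of expressed genes that were past it upwards and 4.90% in either direction. The median in TPM was 0.043, beside 0.077 over all expressed genes. Of the members 0 passed 2-fold in both units, against 3.85% of expressed genes that did so in the same direction.

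Among the coactivators, YAP1 (ENSG00000137693, chromosome 11, 102110461 to 102233423, plus strand, GRCh38 as in the files) had 1047 counts in the control library against 944 in the library labelled sh-HIPK2. That is 38.2 CPM (35.9 to 40.6) against 34.9 CPM (32.7 to 37.2), with a ratio of 0.914 (0.836 to 0.999). In TPM it was 13.8 and 14.1, so that the small difference had the opposite sign. Its TPM log2 ratio of 0.034 was still below the TPM median of 0.077 over all expressed genes. YAP1 mRNA was thus nearly level between the libraries in both units.

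WWTR1, the gene of TAZ (ENSG00000018408, chromosome 3, 149517235 to 149703273, minus strand), had 1218 and 1422 counts. That is 44.4 CPM (41.9 to 47.0) against 52.6 CPM (49.9 to 55.4), 1.18 times higher (1.10 to 1.28). In TPM it was 18.8 and 44.4, 2.36 times higher, and 3.07% of expressed genes had a TPM difference at least as large. The direction was the same in both units and the size was not. Set against its paralog, the library labelled sh-HIPK2 had a count ratio of WWTR1 to YAP1 1.29 times that of the control (1.15 to 1.46), a value that does not depend on library scaling. Per transcript length, WWTR1 stood at 1.37 times the TPM of YAP1 in the control and 3.14 times in the other library.

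Per length, the TEAD genes spanned 2.73 to 55.6 TPM in the control, while their TPM ratios between the libraries ran from 0.977 to 1.19. TEAD4 (ENSG00000197905, chromosome 12, 2959330 to 3040673, plus strand) was the most abundant per length and took 49.1% and 49.5% of the summed TEAD TPM. It had 1597 and 1610 counts, or 58.2 CPM (55.4 to 61.1) against 59.5 CPM (56.6 to 62.5), for a ratio of 1.02 (0.953 to 1.10). The level of this gene was the same within counting error, and 94.4% of expressed genes had a difference at least as large.

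TEAD2 (ENSG00000074219, chromosome 19, 49340595 to 49362457, minus strand) had 1061 and 974 counts, or 38.7 and 36.0 CPM, with a ratio of 0.931 (0.852 to 1.02) and a TPM of 28.1 and 27.5. Its exons overlap CD37 on the opposite strand, which had 4 counts in each library. TEAD3 (ENSG00000007866, chromosome 6, 35473597 to 35497076, minus strand) had 1301 and 1479 counts, or 47.4 and 54.7 CPM, 1.15 times higher (1.07 to 1.24), and a TPM of 26.8 and 31.9. The interval of TEAD2 includes 1 and that of TEAD3 does not, yet 63.6% of expressed genes differed by at least as much as TEAD3.

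TEAD1 (ENSG00000187079, chromosome 11, 12674591 to 12944483, plus strand) was the scarcest TEAD. It had 109 counts in the control library against 252 in the library labelled sh-HIPK2, or 3.97 CPM (3.26 to 4.79) and 9.31 CPM (8.20 to 10.5). The ratio was 2.34 (1.86 to 2.96), and 5.43% of expressed genes had a log2 ratio at least as large in size. In TPM the gene stood at 2.73 and 2.86, a ratio of 1.05. Its share of the TEAD counts went from 2.68% to 5.84%, while its share of the TEAD TPM was 2.40% and 2.32%. Whether TEAD1 mRNA differed between these libraries therefore depended on the unit.

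Summed over the family, the TEAD genes had 148 and 159 CPM, a ratio of 1.08 (1.03 to 1.12), and 113 and 123 TPM. Within the family, the count balance of TEAD1 against the other 3 genes was 2.25 times higher (1.78 to 2.86), that of TEAD3 1.11 times (1.01 to 1.22), and that of TEAD2 was 1.21-fold lower (1.09 to 1.34). For TEAD4 the balance was 0.921 (0.842 to 1.01). In TPM the balance of TEAD1 was 0.965, that of TEAD2 0.870, that of TEAD3 1.12 and that of TEAD4 1.02. The order of abundance per length was TEAD4 above TEAD2 and TEAD3, with TEAD1 far below, in both libraries, and TEAD2 and TEAD3 lay close together.

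Among the kinases, LATS1 (ENSG00000131023, chromosome 6, 149658153 to 149718256, minus strand) had 220 and 263 counts, or 8.02 CPM (6.995 to 9.15) and 9.72 CPM (8.58 to 10.97). The ratio was 1.21 (1.01 to 1.46), and the TPM was 2.54 and 2.59. LATS2 (ENSG00000150457, chromosome 13, 20973032 to 21061547, minus strand), itself a known target of YAP, had 223 and 201 counts, or 8.13 CPM (7.10 to 9.27) and 7.43 CPM (6.44 to 8.53). Its ratio was 0.914 (0.751 to 1.11) and its TPM 2.06 and 2.01. The interval of LATS2 includes 1 and that of LATS1 only just leaves it out. The count ratio of LATS2 to LATS1 was 1.33-fold lower (1.01 to 1.74), and in TPM 1.04-fold lower.

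STK3 (ENSG00000104375, chromosome 8, 98454631 to 98942827, minus strand), the gene of the kinase MST2, was the member with the lowest ratio. It had 247 counts in the control library against 158 in the library labelled sh-HIPK2, or 9.004 CPM (7.92 to 10.2) and 5.84 CPM (4.96 to 6.82). It was 1.54-fold lower (1.26 to 1.90) in CPM and 1.44-fold lower in TPM. Both units gave the same direction and a size under 2-fold, and 23.2% of expressed genes differed by at least as much in CPM. Its paralog STK4, the gene of MST1, went the other way, with 301 and 413 counts, 1.39 times higher (1.20 to 1.62). The count ratio of STK3 to STK4 was 2.14-fold lower (1.66 to 2.77), and 2.097-fold lower in TPM. Per length, STK3 stood at 1.95 times the TPM of STK4 in the control and at 0.928 times in the other library, a value too near 1 to order the genes there.

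NF2 (ENSG00000186575, chromosome 22, 29603556 to 29698598, plus strand), the gene of merlin, had 1186 counts in the control library against 2474 in the library labelled sh-HIPK2. That is 43.2 CPM (40.8 to 45.8) against 91.4 CPM (87.9 to 95.1), 2.11 times higher (1.97 to 2.27). A log2 ratio of this size or more was seen in 5.33% of expressed genes. In TPM it was 20.7 and 27.0, 1.30 times higher. NF2 was higher in both units, but past 2-fold in counts only.

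Per length, the members formed an upper and a lower tier in both libraries. In the control the TPM order was TEAD4, TEAD2, TEAD3, NF2, WWTR1 and YAP1, from 55.6 down to 13.8, and then STK3, TEAD1, LATS1 and LATS2, from 4.85 down to 2.06. In the library labelled sh-HIPK2 the lower tier kept its order, from 3.38 down to 2.01 TPM. In the upper tier WWTR1 moved from the fifth place to the second, and the order was TEAD4, WWTR1, TEAD3, TEAD2, NF2 and YAP1. Neighbours such as TEAD2 and TEAD3 in the control (a ratio of 1.05) or TEAD2 and NF2 in the other library (1.02) cannot be ordered, as TPM has no replicate spread here. LATS2 lay above 24.2% and 20.8% of expressed genes and TEAD4 above 81.6% and 82.8%, so the LATS kinase genes were low and the TEAD4 gene high in this line.

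**Figure D2:**
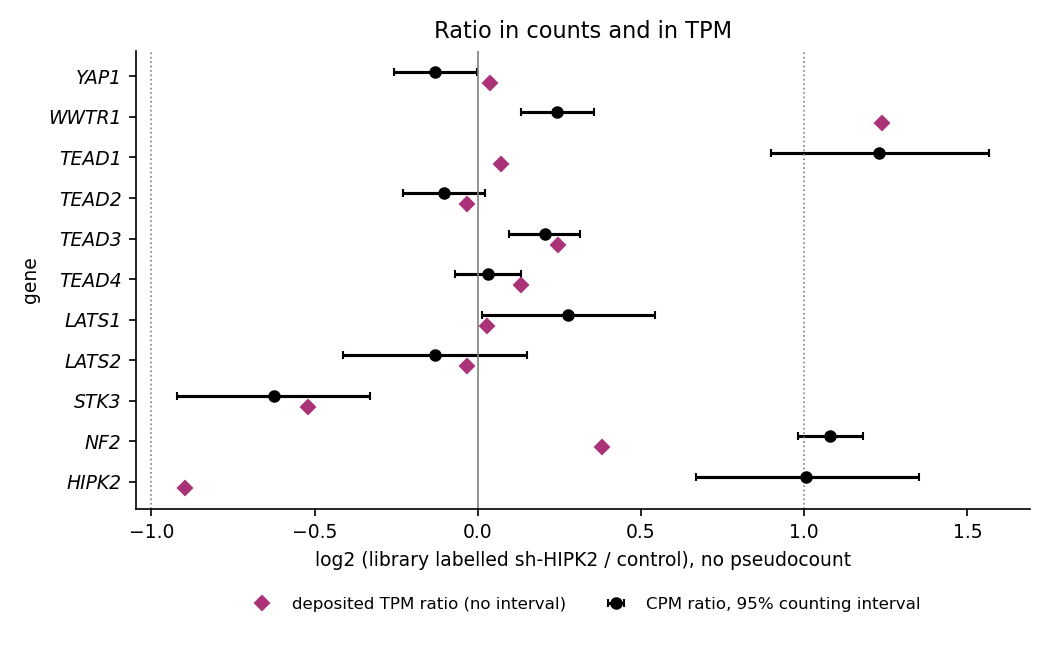
Log2 ratio of the library labelled sh-HIPK2 to the sh-scramble control for the 10 Hippo genes and HIPK2, without a pseudocount; black points are CPM ratios with 95% counting intervals, diamonds are deposited TPM ratios, and dotted lines mark 2-fold. The units part for WWTR1, TEAD1, NF2 and HIPK2, and lie close for the other genes.

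The units can part because count and FPKM (a level per kilobase that is proportional to TPM within a library) of a gene are linked by a transcript length. They also differ in scaling, since CPM used TMM factors and the deposited TPM did not. TEAD4, with an implied length of 1462 bases in both libraries, thus had a ratio of 1.02 in CPM and 1.10 in TPM. The median log2 ratio over all expressed genes was 0.00023 in CPM and 0.077 in TPM. The transcript length was recovered from each pair of count and FPKM, with its scale set on genes that have a single transcript in GENCODE 29. Of these, 98.7% of 373 genes in the control and 98.9% of 358 in the other library fell within 5% of their annotated length. For a gene with several transcripts it is by arithmetic an average of their lengths, weighted by the molecules assigned to each, if counts and FPKM were summed over transcripts; which tool made them is not stated in the labels. LATS2, with 1 protein-coding transcript of 5511 bases, had an implied length of 5513 and 5531 bases.

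For 3 members the implied length differed 1.5-fold or more between the libraries, a size chosen after the values were seen, which 4.93% of 11760 expressed genes with a length in both libraries reached. TEAD1 had an implied length of 2036 bases in the control and 4875 in the library labelled sh-HIPK2, 2.39 times longer. Its 6 protein-coding transcripts run from 477 to 8477 bases, and of these TEAD1-203 alone is longer than 3075 bases. The control value is thus below, and the other above, each of the 3 transcripts of 2544 to 3075 bases.

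NF2 had 2914 and 5071 bases, 1.74 times longer, with 10 protein-coding transcripts from 1716 to 6025 bases. WWTR1 went the other way, from 3291 to 1770 bases, 1.86-fold shorter, with 8 protein-coding transcripts from 503 to 5030 bases. The longest but one of these, WWTR1-201, has 2103 bases, so the control value lies above and the other below that transcript. HIPK2 itself had 3443 and 13824 bases, 4.01 times longer, and its longest transcript, HIPK2-202, has 15049 bases. A shift at least as large as that of HIPK2 was seen in 0.187% of expressed genes, as large as that of TEAD1 in 0.774%, as large as that of WWTR1 in 1.92% and as large as that of NF2 in 2.55%.

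LATS1 had an implied length of 4405 and 5613 bases, 1.27 times longer. For the other 6 members, YAP1, TEAD2, TEAD3, TEAD4, LATS2 and STK3, the shift was under 0.1 on the log2 scale. The genes whose ratio differed most between the units were thus those with the largest length shifts, which follows from how the units are linked. Gene-level values cannot show which transcripts were present. Exons of YAP1, WWTR1, LATS1 and STK3 overlap antisense RNA genes that the deposited tables do not list, and whether counting used strand is not stated in the labels.

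**Figure D3:**
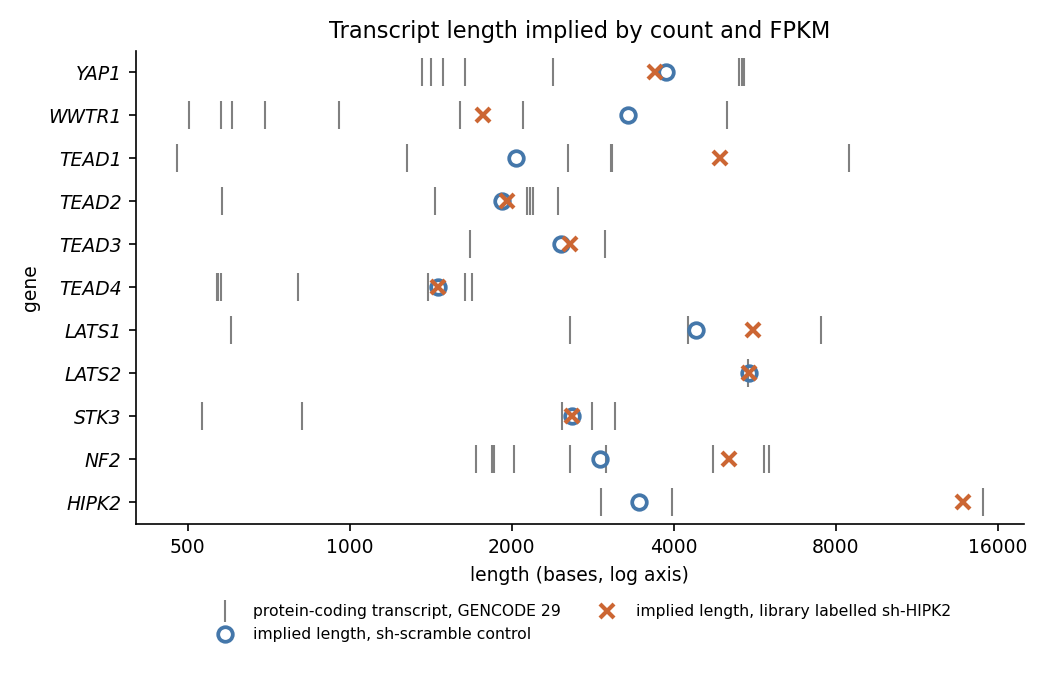
Transcript length (bases, log axis) implied by count and FPKM for each gene in the sh-scramble control (blue circles) and the library labelled sh-HIPK2 (orange crosses), with annotated protein-coding transcripts as grey ticks. The marks part for WWTR1 (3291 and 1770 bases), TEAD1 (2036 and 4875), NF2 (2914 and 5071) and HIPK2 (3443 and 13824) and nearly coincide for LATS2, STK3 and TEAD4.

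The related lists given from here on were chosen with earlier results of these data known. Their counts beside the shares of all expressed genes are therefore descriptions and no test. The partners of the core kinases were mixed. The scaffold SAV1, which joins MST to LATS, had 697 and 380 counts, 1.81-fold lower (1.59 to 2.06) in CPM and 1.64-fold lower in TPM. The LATS coactivator MOB1A had 1513 and 1042 counts, 1.43-fold lower (1.32 to 1.55), and its relative MOB1B had 25 and 35 counts, a ratio of 1.42 (0.826 to 2.47). Together with STK4 these 4 genes had a median log2 ratio of -0.12, and 0 passed 2-fold. STK3, SAV1 and MOB1A were thus each lower in both units.

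Kinases that act beside or above MST were mostly higher. Of 9 expressed TAO and MAP4K family genes, 8 were higher in CPM in the library labelled sh-HIPK2 and 8 in TPM, where 50.0% and 57.8% of all expressed genes were, and the median log2 ratio was 0.70 in CPM and 0.53 in TPM. TNIK had 116 and 410 counts, 3.58 times higher (2.91 to 4.44). TAOK1 had 112 and 248 counts, 2.24 times higher (1.79 to 2.83), although its log2 ratio with the pseudocount fell just short of 1. MAP4K2 was 1.92 times (1.78 to 2.06) and MAP4K3 2.103 times higher (1.66 to 2.67). The TPM ratios of TNIK, TAOK1, MAP4K2 and MAP4K3 were 2.99, 2.40, 2.07 and 2.46. Unlike NF2 and TEAD1, these 4 genes were about as much higher in TPM as in CPM when no pseudocount was used. TAOK1 had only 0.46 and 1.10 TPM, and its TPM log2 ratio with the pseudocount was 0.53. By the 2-fold rule 1 of the 9 genes, TNIK, passed in CPM and 2 passed in TPM. Of all expressed genes, 3.26% passed it upwards in CPM and 2.69% in TPM.

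Junction and polarity scaffolds of the pathway showed no common direction. Of 20 expressed genes, 11 were higher and 9 lower in CPM, with a median of 0.033, where 50.0% of all expressed genes were higher. In TPM 13 were higher and 7 lower, with a median of 0.23, beside 57.8% higher and a median of 0.077 over all expressed genes. AMOT, an angiomotin that binds YAP, had 32 counts (1.18 CPM) in the library labelled sh-HIPK2 and 0 in the control, where a count of 0 is compatible with up to 3 counts (0.109 CPM). WWC1, the gene of KIBRA, a partner of merlin, was 1.55-fold lower (1.44 to 1.66), while LLGL1 was 1.51 times (1.43 to 1.59) and PATJ 1.44 times higher (1.18 to 1.77). Chosen after its values were seen, FAT1, an atypical cadherin, had a CPM ratio of 0.999 (0.921 to 1.08) and a TPM ratio of 2.62. WWC2, chosen in the same way, had a CPM ratio of 1.06 (0.788 to 1.42) and a TPM ratio of 2.30. The TPM ratio of WWC2 came from low levels of 0.54 and 1.24 TPM. FAT1 and WWC2 are cases like WWTR1, with log2 length shifts of -1.29 and -1.02.

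Genes of STRIPAK, a phosphatase complex that inactivates MST kinases, had 11 of 15 members higher and 4 lower in CPM, with a median of 0.14. Over all expressed genes 50.0% were higher in CPM. In TPM 10 were higher and 5 lower, with a median of 0.059, beside 57.8% higher and a median of 0.077 over all expressed genes. The STRIPAK kinase gene STK24, also called MST3, was 2.18-fold lower (2.09 to 2.27), and the catalytic phosphatase gene PPP2CA 1.48-fold lower (1.39 to 1.57). SLMAP, the adaptor that binds MST, was 1.90 times (1.53 to 2.36) and the scaffold STRN 1.88 times higher (1.52 to 2.32). Of 4 expressed RASSF genes, which encode partners of MST kinases, RASSF3 was 1.51-fold (1.29 to 1.76) and RASSF4 1.42-fold lower (1.26 to 1.59). RASSF1 and RASSF5 had ratios of 0.976 (0.869 to 1.10) and 1.02 (0.763 to 1.37), and the list median was -0.26.

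The VGLL genes encode cofactors that, like YAP and TAZ, bind TEAD factors. All 4 were lower in the library labelled sh-HIPK2 in CPM and in TPM, with a median log2 ratio of -0.86 and -0.72. Over all expressed genes 50.0% were lower in CPM and 42.2% in TPM. VGLL1 had 95 and 16 counts, 5.86-fold lower (3.43 to 10.7). VGLL2 had 1243 and 543 counts, 2.26-fold lower (2.04 to 2.502). These 2 passed 2-fold in both units, against 2.87% of expressed genes that were past 2-fold lower in CPM and 2.21% in TPM. VGLL3 had 38 and 16 counts and 0.185 and 0.140 TPM, with an implied length 1.65-fold shorter, and VGLL4 was 1.27-fold lower (1.13 to 1.42). All 4 genes of the list passed the filter of 1 CPM. VGLL1 (3.46 and 0.591 CPM) and VGLL3 (1.39 and 0.591 CPM) did so through the control library alone, so they could be counted only as lower.

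Among genes that hold YAP in the cytoplasm or mark it for decay, 10 of 11 were lower in CPM (median -0.36) and 8 of 11 in TPM (median -0.069). Over all expressed genes 50.0% were lower in CPM and 42.2% in TPM, with a TPM median of 0.077. Those with the largest differences encode 14-3-3 proteins, which bind phosphorylated YAP. YWHAZ was 1.65-fold lower (1.61 to 1.70), YWHAH 1.61-fold (1.54 to 1.68), YWHAE 1.36-fold (1.33 to 1.39) and YWHAQ 1.36-fold (1.32 to 1.39). None of the 11 genes passed 2-fold in either unit.

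Downstream, 8 of 20 expressed YAP/TEAD output genes passed 2-fold, 7 of them lower and 1 higher, against 2.87% of all expressed genes past it downwards and 3.26% upwards, with a median of -0.15 in CPM and -0.099 in TPM. CTGF had 615 and 144 counts and ANKRD1 226 and 7 counts, while IGFBP3 was 3.34-fold (3.23 to 3.44) and F3 3.05-fold lower (2.94 to 3.17). ANKRD1 (8.24 and 0.259 CPM) passed the filter through the control library alone. Chosen after their values were seen, FOXF2 was 4.37 times (3.01 to 6.51) and TGFB2 1.98 times higher (1.61 to 2.45). In CPM 14 of the 20 genes were lower and 6 higher, where 50.0% of all expressed genes were lower. In TPM 12 were lower and 8 higher, where 42.2% of all expressed genes were lower. Most but not all genes of the list were thus lower. The summed CPM of this list was 3644 and 2122, a difference carried mainly by CYR61 (976 and 329 CPM), IGFBP3 (656 and 197 CPM) and F3 (407 and 134 CPM). The summed CPM of the 10 Hippo genes was 299 and 361. That difference was carried mainly by NF2 (43.2 and 91.4 CPM), whose TPM ratio was 1.30. The sum also joins genes that restrain YAP and TAZ with the genes of YAP, TAZ and TEAD factors. Among the members, YAP1, TEAD2, TEAD3 and TEAD4 had CPM ratios from 0.914 to 1.15 and TPM ratios from 0.977 to 1.19. WWTR1 and NF2 were higher in both units. TEAD1 had ratios of 2.34 in CPM and 1.05 in TPM, LATS1 of 1.21 and 1.02, and STK3 of 0.648 and 0.697. The VGLL cofactor genes were all lower in both units. Whether any of these differences bears on the output genes was not tested. LATS2, an output gene in other settings and counted here with the kinases, had the near-level values given above. Among the genes named outside the 10, exons of SAV1, LLGL1, STK24, RASSF4, VGLL4 and WWC2 overlap a listed gene on the opposite strand. Those of MOB1B, PPP2CA and the marker PDGFRA overlap one on the same strand. Reads in shared exons make the values of all these genes uncertain.

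**Figure D4:**
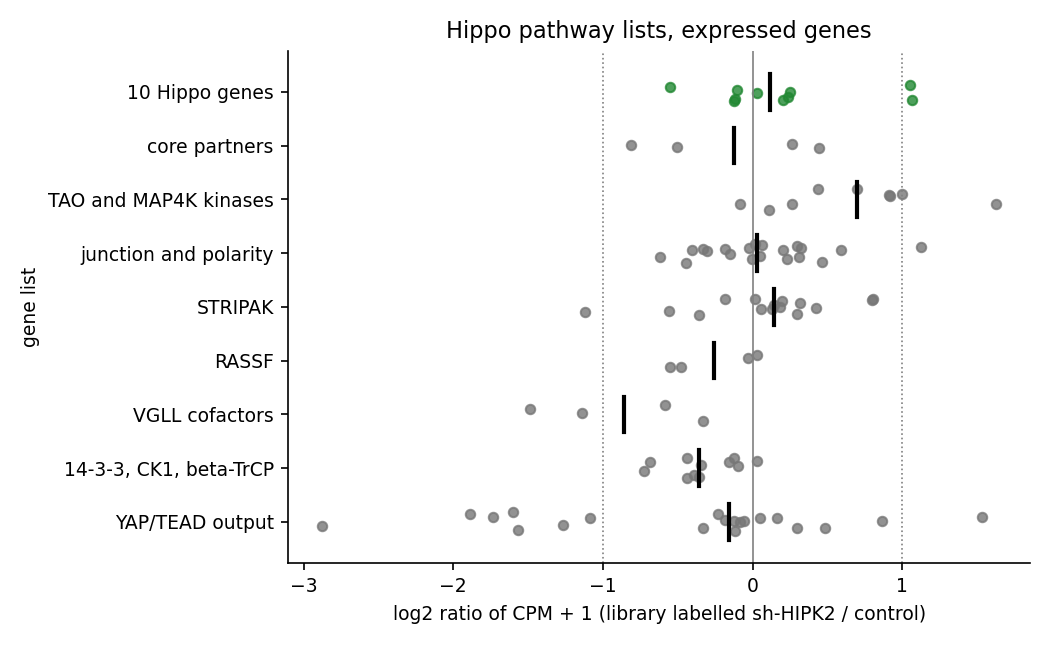
Log2 ratio of CPM + 1 (library labelled sh-HIPK2 over sh-scramble control) of each expressed gene in the 10 Hippo genes (green) and 8 related lists (grey); thick bars are list medians, dotted lines mark 2-fold, and vertical scatter only separates points. The 4 VGLL cofactor genes all lie below 0, 8 of 9 TAO and MAP4K kinase genes lie above it, and the Hippo genes centre at 0.12.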

How the data were processed

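Total RNA of 2 Cal-27 cultures was sequenced on an Illumina HiSeq with paired ends of 150 bp, per the labels' protocols. The submitters' processing notes name FastQC, TopHat2 (version 2.1.1) and the build GRCh38 (hg38). The counting tool, its annotation and strand setting were not given in those sources. The authors deposited a raw count, TPM and FPKM per gene for 20263 genes, per the file headers.

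Scaling to CPM used edgeR 4.0.16 (TMM) under R 4.3.3. The log2 ratio used a pseudocount of 1 CPM, and 11813 genes reached 1 CPM in a library and were counted as expressed. CPM ratios and paralog balances carry 95% exact conditional intervals and levels 95% exact Poisson intervals, from scipy 1.17.1; the reads carry no molecular identifiers, so intervals and limits cover counting error only. A count of 0 allows up to 3 counts. Named genes are HIPK2, the 10 members, 4 core partners and from each list up to 4 expressed genes, those whose log2 ratio was largest in size; markers at 0 counts are named as well, and FAT1, WWC2, CYR61, FOXF2 and TGFB2 were chosen after their values were seen. The members and lists were chosen with earlier results of these data known. The ratio, balance and length steps were tested on simulated data. Transcript lengths and exon overlaps come from GENCODE 29, on the same build as the files, and promoter sequences from RefSeq.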

Additional observations from a re-analysis of the deposited data

How the results depend on the processing

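No replicate could be left out, since each condition has 1 library. No paired analysis was possible because neither condition has a second library. Of 60 values of single members under other scalings, units and pseudocounts, 54 stayed within their counting interval. The other scalings shift every gene by nearly the same small amount, so for them this is a weak check. In TPM, YAP1, WWTR1, TEAD1, TEAD4 and NF2 left their intervals, as did TEAD1 with a pseudocount of 5. In TPM the log2 ratio of YAP1 was 0.034, which reverses its sign, although the TPM median over all expressed genes was 0.077. The log2 ratio of HIPK2 was -0.49 in TPM, which also reverses its sign. The TPM balance of TEAD1 against the other TEAD genes was 0.965, again reversed. The TPM balance of WWTR1 to YAP1 was 2.30 and that of TEAD4 1.02. In TPM the log2 ratio was 1.20 for WWTR1, 0.051 for TEAD1 and 0.37 for NF2, and 1 member passed 2-fold. With a pseudocount of 5 the log2 ratio of HIPK2 was 0.54 and 0 members passed 2-fold; with a filter at 10 CPM 1 did, at 4-fold 0 did, and without TEAD1, NF2 and WWTR1, a choice made after the data were seen, 0 did and the median was -0.10. Over all expressed genes, a pseudocount of 0.1 put 676 past 2-fold higher and 515 lower, a pseudocount of 5 put 124 and 161 there, and the counts were 159 and 217 with a filter at 10 CPM, 1254 and 1176 at 1.5-fold and 62 and 48 at 4-fold.

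For the TAO and MAP4K kinases, the median was 0.53 in TPM and 0.57 with a pseudocount of 5, with no filter and with a filter at 10 CPM; 2 genes passed 2-fold with total counts, upper-quartile factors or TPM, 3 with a pseudocount of 0.1, 5 passed 1.5-fold and 0 passed 4-fold. For junction scaffolds the median was 0.23 in TPM, 0 genes passed 2-fold with a pseudocount of 5 or a filter at 10 CPM, 3 passed 1.5-fold and 0 passed 4-fold. The VGLL median was -1.14 at a pseudocount of 0.1 and -0.44 at 5, where 1 gene passed 2-fold, as with a filter at 10 CPM; 0 passed 4-fold. The YAP turnover and retention median was -0.29 with total counts, -0.29 with upper-quartile factors and -0.069 in TPM, and 2 genes passed 1.5-fold. A filter at 10 CPM gave medians of -0.51 for core partners and -0.48 for RASSF genes and left 5 output genes past 2-fold; 1 output gene passed 4-fold. At 1.5-fold 1 core partner and 3 STRIPAK genes passed, and at 4-fold 0 STRIPAK genes did. Apart from lists made shorter by a filter and thresholds that are stricter or looser, the cause was not tested. Genes of low count are limited by depth, as 1 count equals 0.0365 CPM in the control.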
